A study of Mus musculus with 15 samples.

Results

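Mouse cells make 2 near-identical versions of one protein of the small ribosomal subunit, Rps27 and Rps27l, and the question addressed here was which mRNAs the ribosomes carrying one version held more or less often than the ribosomes carrying the other. The comparison took 12 of the 15 libraries of the study, those of the 6 epitope-tagged mouse embryonic stem cell (mESC) clones among its 9 clones. All 6 derive from the E14Tg2a.4 line, grown in serum with leukemia inhibitory factor. In 3 independently selected clones (2b12, 2c3 and 2c4, *Rps27-FLAG*) CRISPR had placed a 3xFLAG tag on both alleles of the endogenous *Rps27* gene, at the end of its coding sequence (CDS). In the other 3 (4a2, 4a3 and 4b7, *Rps27l-FLAG*) the same tag sat on both alleles of *Rps27l*, and each clone otherwise kept its untagged paralog. Every clone was treated with cycloheximide, which stalls elongating ribosomes. Lysates were digested with RNAse A and T1, and the ribosomes were pelleted. The mRNA pieces that ribosomes shield from digestion (ribosome-protected fragments, RPFs) were read by sequencing, from the resuspended pellet (total RPFs) and from the ribosomes that anti-FLAG beads then captured, after a passage over control IgG beads (IP RPFs). That gave 4 groups of 3 libraries, paired as IP and total within each clone, and the fragments of all libraries with one replicate number were pooled for library preparation. Each clone is a single selected line, so that the spread between clones includes whatever else differs between them. The passage-matched wild-type clones carry no tag, have no IP library and did not enter the comparison.

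A ribosome has a single place for Rps27 or Rps27l, so a cell that expresses both genes holds a mixed population of ribosomes. Ribosome profiling reads out which coding sequences ribosomes occupied, since each protected fragment marks the position of a ribosome on an mRNA. For each transcript the measured quantity was its IP RPFs over its total RPFs in the same clone (the IP/total ratio), which says how its share of fragments among the tagged ribosomes compared with its share among all ribosomes of that clone. The difference between the lines in the log2 of this ratio, *Rps27l-FLAG* minus *Rps27-FLAG*, is the log2 fold change given throughout. A positive value stands for a transcript whose share among the tagged ribosomes, relative to all ribosomes of the same clone, was higher in *Rps27l-FLAG*. Such a transcript is called higher among Rps27l-ribosomes below, also where its IP RPFs alone were not higher in that line.

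The coding sequences of both paralogs are shown from the GENCODE M21 transcripts, since they define the tagged proteins and decide which of them the fragments can be assigned to. *Rps27* lies on the minus strand of chromosome 3 of GRCm38 (90212671 to 90213651) and *Rps27l* on the plus strand of chromosome 9 (66946086 to 66949512), each in 4 exons. Capitals mark the bases that differ between the pair.
Rps27: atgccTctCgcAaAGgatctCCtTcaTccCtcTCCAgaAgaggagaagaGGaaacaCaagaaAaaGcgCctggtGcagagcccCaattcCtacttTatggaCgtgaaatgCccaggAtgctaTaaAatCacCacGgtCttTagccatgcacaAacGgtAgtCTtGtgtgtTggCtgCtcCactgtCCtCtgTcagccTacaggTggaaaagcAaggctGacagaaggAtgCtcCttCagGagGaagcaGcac
Rps27l: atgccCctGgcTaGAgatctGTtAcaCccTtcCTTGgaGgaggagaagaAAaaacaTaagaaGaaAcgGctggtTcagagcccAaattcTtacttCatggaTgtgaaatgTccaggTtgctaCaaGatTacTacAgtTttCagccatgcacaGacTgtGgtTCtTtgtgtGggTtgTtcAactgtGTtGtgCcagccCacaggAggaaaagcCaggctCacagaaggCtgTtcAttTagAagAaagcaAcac
Of 252 bases, 60 differ, and they fall in 53 of the 84 codons. In 50 of these codons the encoded residue is the same, and codons 5, 12 and 17, counted from the start codon as 1, encode different residues. All the differences in protein sequence therefore lie near the amino terminus, far from the tag.

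The tagged genes themselves were examined first. *Rps27* had a count of 0 in every library, because the authors kept uniquely aligned reads and all 225 stretches of 28 nt along its CDS recur in the retrogene *Rps27rt*, so its ratio could not be measured. Fragments of *Rps27l*, none of whose 28-nt stretches occurs in *Rps27*, stood at 162, 195 and 185 normalized CPM (counts scaled to a common library size) in the IP RPFs of the 3 *Rps27-FLAG* clones and at 149, 169 and 167 in those of the *Rps27l-FLAG* clones. Its log2 fold change was -0.03 (standard error 0.054, adjusted p = 0.878), the clones of both lines overlapped, and the value was 0.00 with the trend in CDS length removed and without replicate 2 of *Rps27-FLAG*. The 10 embryonic stem cell markers examined (*Pou5f1*, *Sox2* and *Nanog* among them) were all abundant, with a summed level between 4547 and 5549 CPM over the 12 libraries. Markers of fibroblast feeder cells summed to between 8.93 and 34.6 CPM and those of mesoderm to between 5.84 and 30.1 CPM. Trophoblast markers, mostly *Tfap2c*, summed to between 39.8 and 87.2 CPM. Neural markers, mostly *Tubb3*, summed to between 142 and 145 CPM in the IP RPFs of *Rps27-FLAG* and between 124 and 137 in those of *Rps27l-FLAG*, and to between 140 and 165 CPM over the total RPFs of both. Primitive endoderm markers summed to between 4.47 and 16.2 CPM in *Rps27-FLAG* libraries and between 12.2 and 27.9 CPM in *Rps27l-FLAG* libraries. No member of these lists was at 0 in all libraries, and their part in the results was not tested. The 12 libraries held from 3972152 to 6673935 counts in the IP RPFs and from 6313827 to 8064166 in the total RPFs.

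Over the 10084 transcripts tested, the ratios of the lines were close. The median log2 fold change was -0.00, the standard deviation 0.18, and the median standard error of a single transcript 0.12. A transcript counted as different when edgeR gave an adjusted p below 0.05 and the log2 fold change was beyond 0.25 in either direction, called both limits from here on. Rps27l-ribosomes had 47 such transcripts in their favour (0.466% of those tested) and Rps27-ribosomes 10 (0.0992%). With the adjusted p alone the numbers were 136 (1.35%) and 14 (0.139%). In 55 of the 57 the ratios of the lines were separate, with no clone of one line among those of the other, while over all tested transcripts 9.07% had *Rps27l-FLAG* clones above and 7.13% *Rps27-FLAG* clones above. Between the clones of the same preparation pool, 46 of the 47 and all 10 differed in the same direction in each of the 3 pools, as transcripts chosen for their difference would, while 17.4% of all tested transcripts were higher in *Rps27l-FLAG* in each pool and 15.8% in *Rps27-FLAG*. *Tmod3*, which the authors set aside as a probable product of the anti-FLAG capture, was left out of all counts. Its log2 ratios were 0.63, 0.75 and 0.72 in *Rps27-FLAG* and 1.41, 1.45 and 1.31 in *Rps27l-FLAG*. The authors also measured less RNA in the IP RPFs of *Rps27l-FLAG* than in those of *Rps27-FLAG*. They propose that more anti-FLAG binding sites stayed free in that capture.

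A kinetochore protein, a chromatin ATPase, a DNA helicase and a Golgi tether were among the transcripts that differed most clearly in favour of Rps27l-ribosomes. *Cenpf*, a protein of the outer kinetochore that is made as cells approach mitosis, has a CDS of 8991 nt on chromosome 1 (189640606 to 189688086). It had log2 ratios of -0.80, -0.71 and -0.71 in *Rps27-FLAG* and of -0.46, -0.29 and -0.40 in *Rps27l-FLAG*. Its total RPFs overlapped between the lines, at 556, 498 and 484 normalized CPM against 534, 590 and 465, and its IP RPFs did not, at 319, 303 and 296 against 389, 481 and 351. It was thus depleted by the IP in all 6 clones, and less so in each *Rps27l-FLAG* clone than in any *Rps27-FLAG* clone. The log2 fold change of *Cenpf* came to 0.36 (standard error 0.043, adjusted p = 6.08e-10 by edgeR). *Atad2*, a bromodomain ATPase that binds acetylated chromatin, had nearly the same ratio in each *Rps27l-FLAG* clone, -0.52, -0.50 and -0.51, and lower ones in *Rps27-FLAG*, -0.84, -0.83 and -0.91, a difference of 0.34 (standard error 0.045, adjusted p = 1.78e-08). *Cenpf* and *Atad2* were among the transcripts that passed both limits in edgeR, in voom, in DESeq2, with the CDS length trend removed, with libraries thinned to one depth, and in all 6 fits that left out 1 clone.

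*Recql* encodes a RecQ-family DNA helicase. Its log2 ratios were -0.53, -0.32 and -0.37 in the *Rps27-FLAG* clones and 0.04, 0.28 and 0.03 in the *Rps27l-FLAG* clones. Relative to its total RPFs it was thus depleted by the IP in one line and not in the other. Its IP RPFs overlapped between the lines, at 37.5, 50.9 and 46.3 normalized CPM against 49.6, 55.1 and 48.3. Its total RPFs did not overlap, at 54.3, 63.5 and 59.7 against 48.2, 45.5 and 47.3. Between the lines *Recql* differed by 0.19 in the IP and by -0.33 in the total (log2 scale). The microtubule-binding protein *Eml4* had a similar arrangement of ratios, with -0.32, -0.27 and -0.24 against 0.08, 0.02 and 0.07 (log2 fold change 0.34, standard error 0.055, adjusted p = 8.63e-06 by edgeR). Its total RPFs were alike at 161, 150 and 157 normalized CPM against 167, 159 and 150, and its IP RPFs were 129, 124 and 132 in *Rps27-FLAG* and 176, 162 and 158 in *Rps27l-FLAG*. The plot of ratios by clone shows both kinds of transcript, those depleted in every clone and those depleted in one line.

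**Figure D1:**
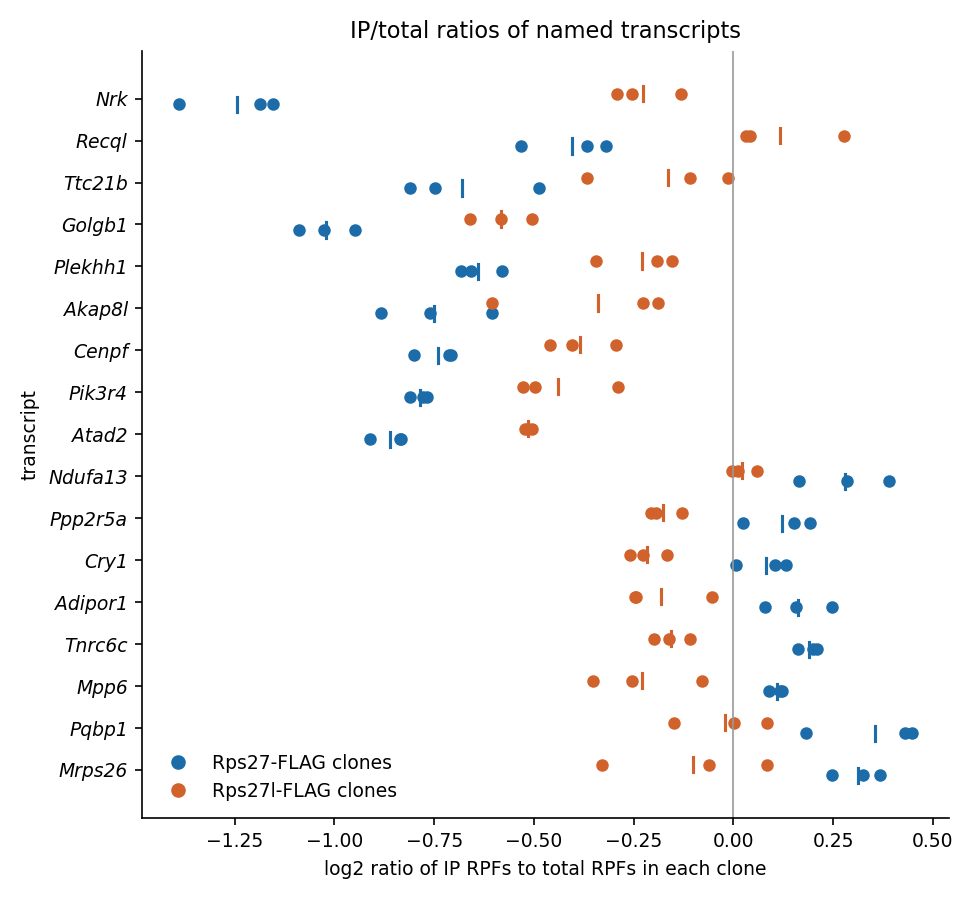
Log2 IP/total ratio (horizontal axis) of 17 named transcripts in each of the 3 *Rps27-FLAG* clones (blue) and 3 *Rps27l-FLAG* clones (orange), with short bars for the mean of each line. The upper 9 are higher among Rps27l-ribosomes and have negative ratios in all *Rps27-FLAG* clones, and the lower 8 are higher among Rps27-ribosomes and have ratios above 0 in all *Rps27-FLAG* clones.

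*Golgb1* (giantin), a long coiled-coil tether of the Golgi, was among the most depleted transcripts in both lines, with log2 ratios of -1.09, -1.03 and -0.95 in *Rps27-FLAG* and -0.66, -0.58 and -0.51 in *Rps27l-FLAG*. The differences within the 3 pools were 0.43, 0.44 and 0.44. *Pik3r4*, the regulatory subunit of the class III lipid kinase Vps34, had ratios of -0.77, -0.81 and -0.78 against -0.29, -0.53 and -0.50, and *Plekhh1* had -0.68, -0.66 and -0.58 against -0.19, -0.15 and -0.34. The *Rps27l-FLAG* clones of both transcripts lay above all *Rps27-FLAG* clones, with log2 fold changes of 0.36 (standard error 0.066) and 0.43 (standard error 0.096). *Akap8l*, a nuclear A-kinase anchoring protein, had ratios of -0.61, -0.76 and -0.88 against -0.19, -0.23 and -0.60, the extreme clones of the lines almost touching, and a log2 fold change of 0.41. It no longer passed without replicate 3 of *Rps27-FLAG* or replicate 1 of *Rps27l-FLAG*, where its log2 fold change was as low as 0.33 and its adjusted p as high as 0.0802.

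Some of the larger differences rested on few fragments. *Nrk*, a kinase of the Ste20 family, differed by 1.00 on the log2 scale (standard error 0.26, adjusted p = 0.0203), with log2 ratios of -1.19, -1.39 and -1.15 against -0.25, -0.29 and -0.13, from IP counts of 37, 20 and 17 in *Rps27-FLAG* and 43, 36 and 19 in *Rps27l-FLAG*. Leaving out any 1 of the 6 clones took its adjusted p to between 0.0508 and 0.0843. *Ttc21b*, of the intraflagellar transport machinery, differed by 0.46 (standard error 0.13, adjusted p = 0.0468), a p that went up to 0.225 in the 4 fits that lost the call, those without replicate 2 or 3 of *Rps27-FLAG* or without replicate 1 or 3 of *Rps27l-FLAG*. *Ctcfl*, a paralog of Ctcf normally expressed in the germline and chosen here after its values were seen, had a log2 fold change of 1.26 that came from 1 clone. Its ratio was 1.92 in clone 4a3 and between -0.59 and 0.16 in the other 5, and without that clone, replicate 2 of *Rps27l-FLAG*, the log2 fold change was 0.43 and the adjusted p 0.792. The call was also lost without replicate 1 or replicate 3 of *Rps27-FLAG*. *Ctcfl* and *Nf1*, a GTPase-activating protein for Ras, were the transcripts past both limits whose clones overlapped.

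Transcripts higher among Rps27-ribosomes were fewer, and their IP effects had another form. Of the 47 in the other direction, all had a negative IP effect in *Rps27-FLAG* (log2 scale, median -0.71). In *Rps27l-FLAG* 43 of the 47 did (median -0.42), so that most were depleted by the IP in both lines. In *Rps27-FLAG* the IP effect (log2 scale) was positive for all 10, the median being 0.18. In *Rps27l-FLAG* it was negative for 9, and the median was -0.16. The trinucleotide repeat protein *Tnrc6c*, a GW182 protein of microRNA silencing with a CDS of 5700 nt on chromosome 11 (117654289 to 117763437), had log2 ratios of 0.21, 0.20 and 0.16 in *Rps27-FLAG* and -0.11, -0.16 and -0.20 in *Rps27l-FLAG* (log2 fold change -0.34, standard error 0.078, adjusted p = 0.00367 by edgeR). It was the single CDS over 5000 nt in this direction, and the only one of the 8 transcripts named here in this direction that passed both limits in every fit leaving out a clone. *Pqbp1*, a splicing-associated protein encoded on the X chromosome, had IP RPFs of 63.1, 68.9 and 66.8 normalized CPM in *Rps27-FLAG* and 52.2, 51.95 and 56.5 in *Rps27l-FLAG*, with no overlap, and differed by -0.37 on the log2 scale (standard error 0.091, adjusted p = 0.00905).

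The others of the 8 had log2 fold changes from -0.44 to -0.26. *Mrps26*, of the small subunit of the mitochondrial ribosome, had ratios of 0.32, 0.25 and 0.37 against -0.33, -0.06 and 0.09 (log2 fold change -0.44, standard error 0.12, adjusted p = 0.0331). *Ndufa13*, a subunit of respiratory complex I, had ratios of 0.28, 0.39 and 0.16 against -0.00, 0.06 and 0.01 (-0.26, standard error 0.070). The receptor *Adipor1* had -0.34 and the membrane scaffold *Mpp6* -0.35. The clones of the lines did not overlap in any of these. Their calls depended on single clones, however. In the 6 fits that each left out a clone, *Pqbp1* and *Mrps26* passed both limits in 3, *Ndufa13* in 2, and *Adipor1* and *Mpp6* in 1. The adjusted p without the clone that mattered most was 0.171 for *Pqbp1*, 0.390 for *Mrps26*, 0.211 for *Ndufa13*, 0.194 for *Adipor1* and 0.274 for *Mpp6*.

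The ratio has an IP part and a total part, and the transcripts differed in which of them moved. Over the 47, the median difference between the lines (*Rps27l-FLAG* minus *Rps27-FLAG*, log2 scale) was 0.21 in the IP RPFs and -0.11 in the total RPFs. The IP RPFs were higher in *Rps27l-FLAG* in 45 of the 47 and the total RPFs lower in 33. In 15 of the 47 the total RPFs differed by more than the IP RPFs. *Atr*, a kinase of the DNA damage response, differed by -0.04 in the IP and -0.30 in the total, and *Wdr62*, a centrosome and spindle protein, by 0.00 and -0.37. *Nup205* of the nuclear pore was the reverse, with 0.27 in the IP and -0.00 in the total. Among the 10, *Cry1*, a repressor of the circadian clock (ratios 0.13, 0.11 and 0.01 against -0.26, -0.23 and -0.17), differed by -0.04 in the IP and 0.26 in the total, and *Ppp2r5a*, a regulatory subunit of protein phosphatase 2A, by 0.10 and 0.39. *Cry1* lost its call in all 6 fits that left out a clone, with an adjusted p up to 0.220. *Ppp2r5a* lost it in 4, those without replicate 2 or 3 of *Rps27-FLAG* or replicate 1 or 2 of *Rps27l-FLAG*, with an adjusted p up to 0.110. Most of the difference of these transcripts lay in the total RPFs. In a culture, a lower total cannot be told apart as fewer cells expressing a transcript or fewer fragments per cell.

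**Figure D2:**
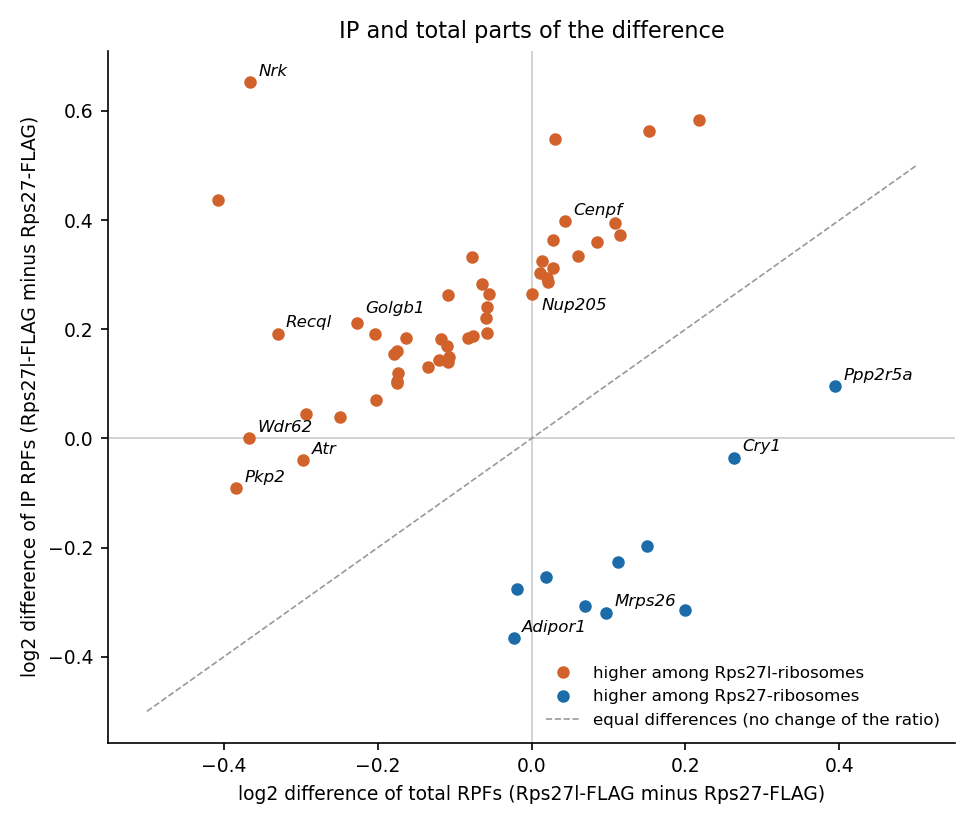
Each point is a transcript past both limits, placed by the log2 difference between the lines in total RPFs (horizontal axis) and in IP RPFs (vertical axis), *Rps27l-FLAG* minus *Rps27-FLAG*. Transcripts higher among Rps27l-ribosomes (orange) lie above the dashed line of equal differences, most of them above 0 on the vertical axis, and *Wdr62*, *Atr*, *Cry1* and *Ppp2r5a* lie near 0 on that axis and away from 0 on the other.

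Some transcripts varied in level between the clones at a steady ratio. *Klhl13*, an X-linked adaptor of Cullin 3 ubiquitin ligases, ranged from 81.5 to 206 normalized CPM in the total RPFs of the 6 clones, and 2b12, 4a2 and 4b7 were low. Its log2 ratios were still within narrow bounds, -0.40, -0.40 and -0.45 in *Rps27-FLAG* and -0.03, -0.08 and -0.13 in *Rps27l-FLAG*, and the log2 fold change was 0.34 (standard error 0.061, adjusted p = 9.42e-05). *Sptlc1*, a subunit of the enzyme that begins sphingolipid synthesis, also had 0.34, but its differences within pools were 0.14, 0.39 and 0.59. *Ints10*, of the Integrator complex, had 0.28 and *Aldh18a1*, which begins proline synthesis, 0.27, with pool differences of 0.32, 0.24 and 0.27 for the former and 0.27, 0.27 and 0.26 for the latter. The last dropped just under the fold limit, to 0.25, without replicate 1 of *Rps27-FLAG*.

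Transcripts higher among Rps27l-ribosomes had longer coding sequences than the rest, more exons and more counts. The median CDS was 5610 nt for the 47, 1292 nt for the 10 and 1440 nt for all tested transcripts. Of the 47, 27 had a CDS over 5000 nt, where 4.96% of all tested transcripts do, and 5 had one under 2000 nt, where 68.0% do. Of the 10, 9 were under 2000 nt. The 47 also had more exons (median 33 against 10) and lower GC content (49.1% against 52.7%), and more counts (median 846 per library against 204). The 10 had a median of 12.5 exons, a GC content of 55.2% and 346 counts per library. By deciles of counts per library, 19 of the 47 fell in the ninth and 11 in the highest. How counts and exon number relate to CDS length, and which of these features goes with the difference, was not tested.

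The IP changed the share of long and short transcripts in all clones. In the shortest decile, with a CDS of 75 to 555 nt, the median log2 ratio was 0.17, 0.20 and 0.20 in the *Rps27-FLAG* clones and 0.15, 0.17 and 0.16 in the *Rps27l-FLAG* clones. In the longest decile, from 3642 nt up, it was -0.31, -0.32 and -0.31 against -0.25, -0.27 and -0.26. The decline with length was therefore present in both lines and steeper in *Rps27-FLAG*. Per doubling of the CDS length the log2 ratio fell by 0.130, 0.135 and 0.139 in the *Rps27-FLAG* clones and by 0.104, 0.111 and 0.108 in the *Rps27l-FLAG* clones. The lines did not overlap, and the difference of the mean slopes was 0.0271 (exact permutation test over clones, two-sided p = 0.1, the smallest that 3 clones against 3 allow). The lines also differed in the RNA yield of the IP, and its part in the slopes and ratios was not tested.

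**Figure D3:**
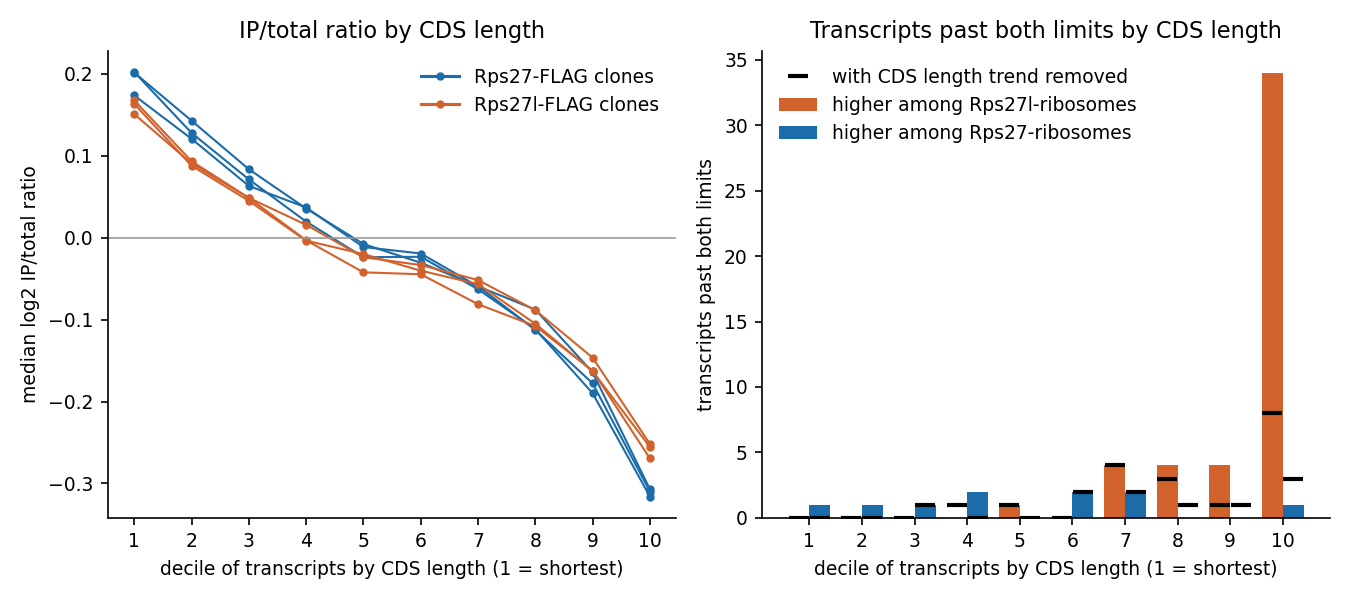
Left, median log2 IP/total ratio of each clone (vertical axis) over deciles of the tested transcripts ordered by CDS length (horizontal axis), *Rps27-FLAG* in blue and *Rps27l-FLAG* in orange. Right, number of transcripts past both limits in each decile and direction, with black bars for the number once the length trend was removed: 34 of the 47 transcripts higher among Rps27l-ribosomes fall in the longest decile, and 8 transcripts do after the trend is removed.

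Across the deciles the median log2 fold change ran upwards, from -0.03 in the shortest to 0.06 in the longest. Among the 500 transcripts with a CDS over 5000 nt it was 0.08, 68.6% lay above 0, and both limits were passed by 27 in favour of Rps27l-ribosomes and by 1, *Tnrc6c*, in favour of the other. The same comparison was then made at matched length, by removing from every library its own trend with CDS length. Past both limits there were now 18 (0.179%) in favour of Rps27l-ribosomes and 10 (0.0992%) in favour of Rps27-ribosomes. They included 23 of the 57, split 17 to 6. By the adjusted p alone there were 109 (1.08%) and 28 (0.278%). Of the 500 transcripts over 5000 nt, 3 remained in the first direction. *Cenpf* at 0.27 and *Golgb1* at 0.35 were among them.

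*Recql* at 0.52, *Akap8l* at 0.41, *Plekhh1* at 0.38, *Klhl13* at 0.34, *Eml4* at 0.32, *Pik3r4* at 0.31 and *Atad2* at 0.30 also passed at matched length, as did *Tnrc6c* at -0.41 and *Pqbp1* at -0.34 in the other direction. *Mdn1*, *Tpr*, *Espl1*, *Dync1h1*, *Nup205* and *Pcnt* kept an adjusted p under 0.05 but fell below the fold limit, with log2 fold changes between 0.16 and 0.24. *Mrps26* (-0.41, adjusted p = 0.0597), *Adipor1* (-0.32) and *Ndufa13* (-0.23) no longer passed. The transcripts that passed only at matched length were *Hemk1*, a protein methyltransferase, at 0.62, and *Eif4g3*, *Palld*, *Myrf* and *Irf2bpl* at -0.31, -0.32, -0.34 and -0.26. These 5 were named after their values were seen. Of all 57, 12 passed both at matched length and in all 6 fits that left out a clone, and *Tnrc6c* was the one of them higher among Rps27-ribosomes.

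Gene families were then compared, with 56 lists of proteins that share a structure, complex or pathway. Of the 57 transcripts past both limits, 33 belong to at least 1 list and 24 to none. The list medians ran from -0.05 to 0.20, and from -0.07 to 0.15 with the length trend removed, around a median of -0.00 for all tested transcripts. No list median reached the 0.25 limit set for single transcripts. The median log2 ratios of the clones did not overlap between the lines in 16 lists, with *Rps27l-FLAG* higher in 11 and *Rps27-FLAG* in 5. They did not overlap over all tested transcripts either, where the median IP effect was -0.01 in *Rps27-FLAG* and -0.03 in *Rps27l-FLAG*. Members that passed with the adjusted p alone are named below after their values were seen. The plot of list medians shows the extremes.

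**Figure D4:**
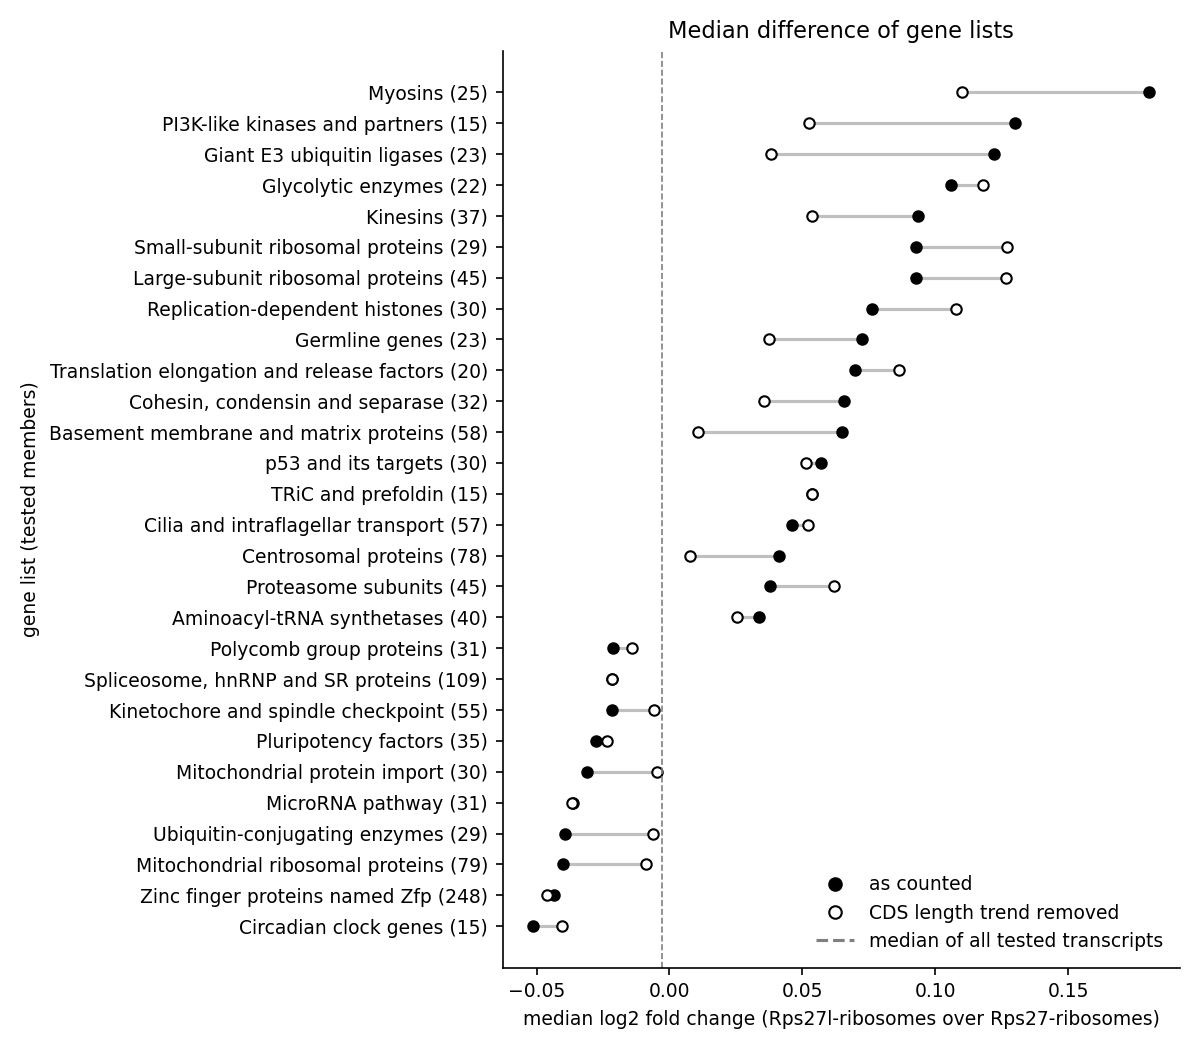
Median log2 fold change (horizontal axis, Rps27l-ribosomes over Rps27-ribosomes) of the 10 lowest and 18 highest gene lists with at least 15 tested members, the number of which is in parentheses. Filled circles are the counts as deposited, open circles have the CDS length trend removed, and the dashed line is the median of all tested transcripts. The medians of myosins, PI3K-like kinases and giant E3 ligases fall towards the dashed line at matched length, and those of ribosomal proteins move away from it.

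Several families of very large proteins had medians above 0. Among 23 giant ubiquitin ligases and their partners (median CDS 7830 nt), 4 were higher among Rps27l-ribosomes and 0 lower, where 0.466% of all tested transcripts and 27 of the 500 with a CDS over 5000 nt were higher. In all, 8 of the 23 had an adjusted p under 0.05, where 1.35% of all tested transcripts did in this direction, and the median was 0.12. Those past both limits were *Rnf213* at 0.31, *Mycbp2* at 0.28, *Usp34* at 0.26 and *Herc2* at 0.25, of which *Usp34* is a deubiquitinase and the others are ligases. *Huwe1*, *Ubr4*, *Birc6* and *Herc1* had an adjusted p under 0.05 and stayed below the fold limit, at 0.14 to 0.21. The median log2 ratio of the list was -0.46, -0.55 and -0.46 in the *Rps27-FLAG* clones and -0.36, -0.40 and -0.38 in the *Rps27l-FLAG* clones. At matched length 0 of the 23 passed both limits and the median was 0.04.

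The kinases related to phosphatidylinositol 3-kinase, which include the DNA damage kinases and the nonsense-mediated decay kinase, gave similar values. Of 15 tested, *Prkdc* (0.29), *Atr* (0.26) and *Smg1* (0.26) were higher among Rps27l-ribosomes, and the median was 0.13. Over all tested transcripts 0.466% passed both limits in this direction and 1.35% the adjusted p alone. Of the 500 with a CDS over 5000 nt, 27 passed both limits in this direction. At matched length 0 of the 15 kinases passed and their median was 0.05. *Trrap*, a catalytically inactive member, had 0.23 and passed with the adjusted p alone. Of 25 myosins, the motor proteins of actin filaments, *Myh9* (0.22) and *Myo10* (0.20) passed with the adjusted p alone, and the median was 0.18, or 0.11 at matched length. The list medians of the single clones overlapped between the lines for the myosins. Not every family of long proteins had a raised median. The 36 spectrins, plakins and other giant cytoskeletal proteins (median CDS 7558 nt) had 0 members with an adjusted p under 0.05 and a median of 0.03, which was -0.04 at matched length. The 50 Kmt2, Setd and related histone methyltransferases (median CDS 3838 nt) also had 0, with a median of -0.02, or -0.07 at matched length.

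Among proteins of cell division, single members differed, and the list medians ran from -0.02 to 0.09. For the lists in this and the following paragraphs, the shares over all tested transcripts in favour of Rps27l-ribosomes were 0.466% by both limits. By the adjusted p alone they were 1.35%. Of the 500 transcripts with a CDS over 5000 nt, 27 passed both limits in that direction. Of 78 centrosomal proteins, the pericentriolar scaffolds *Pcnt* (0.29), *Akap9* (0.30) and *Cdk5rap2* (0.30) and *Wdr62* (0.34) were higher among Rps27l-ribosomes. The list median was 0.04, and 0.01 at matched length, where *Wdr62* alone of the 4 passed both limits. *Wdr62* lost its call without replicate 3 of either line, with an adjusted p up to 0.123. *Cenpf* was the 1 member of 55 kinetochore and spindle checkpoint proteins to pass, and the median of the list was -0.02. Of 32 cohesin and condensin proteins and their partners, *Espl1* (separase, which cleaves cohesin at anaphase) had 0.29 and passed both limits, *Smc2*, *Smc1a*, *Smc5* and *Rad21* passed with the adjusted p alone at 0.16 to 0.22, and the median was 0.07, or 0.04 at matched length, with clone medians that did not overlap.

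Of 37 kinesins 0 passed both limits and *Kif20b* (0.23), *Kif15* (0.21) and *Kif5b* (0.16) passed with the adjusted p alone, with a list median of 0.09, or 0.05 at matched length. The clone medians of the kinesins did not overlap either, at -0.19, -0.23 and -0.25 in *Rps27-FLAG* and -0.15, -0.09 and -0.17 in *Rps27l-FLAG*. *Dync1h1*, the heavy chain of cytoplasmic dynein, had 0.28 and was the 1 of 27 dynein and dynactin proteins past both limits. Of 69 cyclins and cell cycle kinases 0 had an adjusted p under 0.05, and the median was 0.03. Of 61 DNA replication proteins 0 passed both limits, and the median was 0.01. *Top2a* (0.23), *Mcm3* (0.17), *Pola1* (0.15) and *Rif1* (0.14) passed with the adjusted p alone, where 1.35% of all tested transcripts did. *Rad50*, of the complex that processes broken DNA ends, had 0.27 and was the 1 of 50 recombination and Fanconi proteins that passed. It dropped just under the fold limit, to 0.25, without replicate 2 of *Rps27l-FLAG*. Of the 5 RecQ helicases, *Recql* passed both limits and *Blm* (0.20) the adjusted p alone. At the nuclear pore, *Tpr* (0.32, adjusted p = 1.24e-09 by edgeR) and *Nup205* (0.26) passed among 31 tested, where 0.466% of all tested transcripts did. The median was 0.03.

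The ribosomal proteins are encoded by short transcripts, and their medians lay above 0 all the same. Of 45 large-subunit ribosomal proteins, 41 had a log2 fold change above 0, where 49.0% of all tested transcripts do, and the median was 0.09. Among the decile of tested transcripts with the most counts, 68.3% lay above 0 and the median was 0.04. The part of level in the medians of these lists was not tested. None passed both limits, and *Rpl24* (0.21), *Rpl5* (0.19), *Rpl3* (0.18) and *Rpl35a* (0.15) passed with the adjusted p alone, or 4 of 45, where 1.35% of all tested transcripts did. Of 29 small-subunit proteins, 27 lay above 0, the median was also 0.09, and 0 had an adjusted p under 0.05. With the length trend removed both medians were 0.13, and 10 of the 45 and 3 of the 29 had an adjusted p under 0.05 in this direction, where 1.08% of all tested transcripts did. The single clones gave a less clear picture. The median log2 ratio of the large-subunit list was 0.11, 0.28 and 0.22 in *Rps27-FLAG* and 0.24, 0.39 and 0.25 in *Rps27l-FLAG*, so that the lines overlapped, and the median differences in the 3 pools were 0.13, 0.12 and 0.03. Ribosomal protein genes have many near-identical pseudogene copies, and reads were kept where they aligned uniquely, so that the counts of these transcripts are uncertain.

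Elongation and release factors had a median of 0.07 over 20 members, with *Eef1a1* (0.18) and *Eef2* (0.16) past the adjusted p alone. Initiation factors had a median of -0.00 over 49, with *Eif4a1* (0.16) past the adjusted p alone, and aminoacyl-tRNA synthetases 0.03 over 40, with *Mars* at 0.14. Of 88 ribosome biogenesis factors *Mdn1*, the giant ATPase of large-subunit maturation and with 16746 nt the longest CDS of the 47, passed both limits at 0.34 (adjusted p = 1.24e-09). Its log2 ratios were -1.29, -1.34 and -1.31 against -0.97, -0.99 and -0.98. *Heatr1* (0.21) and *Npm1* (0.16) passed with the adjusted p alone, and the list median was 0.03.

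Mitochondrial ribosomal proteins, which are translated by the same cytoplasmic ribosomes, had a median on the other side of 0. Of 79 tested, 24 had a log2 fold change above 0, where 49.0% of all tested transcripts do. The median was -0.04, and *Mrps26* alone passed both limits, where 0.0992% of all tested transcripts did in favour of Rps27-ribosomes. The median log2 ratio was 0.11, 0.11 and 0.15 in the *Rps27-FLAG* clones and 0.05, 0.06 and 0.07 in the *Rps27l-FLAG* clones, without overlap. The median was -0.01 at matched length. The 29 ubiquitin-conjugating enzymes, also short, had a median of -0.04 and -0.01 at matched length, with 0 past the adjusted p limit. The respiratory chain differed within itself, since *Ndufa13* was higher among Rps27-ribosomes while *Atp5b* (0.19) and *Sdha* (0.18) passed the adjusted p alone in the other direction, and the median of 84 members was 0.01. Glycolytic enzymes and glucose transporters had a median of 0.11, with 18 of 22 above 0. Above 0 lay 49.0% of all tested transcripts and 68.3% of the decile with the most counts. *Slc2a3* (0.19), *Pkm* (0.15) and *Slc2a1* (0.13) were past the adjusted p alone, though the clone medians of the lines overlapped for this list.

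Families that define the embryonic stem cell state or its chromatin had medians close to 0 or below it. Of 35 pluripotency factors and 31 Polycomb proteins 0 had an adjusted p under 0.05, with medians of -0.03 and -0.02. Of 248 zinc finger proteins named Zfp 0 had an adjusted p under 0.05, 98 lay above 0, and the median was -0.04, or -0.05 at matched length. The Chd and SWI/SNF remodelers had a median of -0.00 and 1 member past the adjusted p alone, *Brd2* at -0.21. Over all tested transcripts 0.139% passed the adjusted p in favour of Rps27-ribosomes. At matched length the median of the 49 remodelers was -0.03, 16 lay above 0, and 3 had an adjusted p under 0.05 in favour of Rps27-ribosomes, where 0.278% of all tested transcripts did. They were *Brd2* at -0.23, *Chd7* at -0.21 and *Arid1a* at -0.19. Also at matched length, *Sall4* (-0.16) and *Tdgf1* (0.15) of the pluripotency factors and *Zfp462* (-0.17) of the zinc finger proteins had an adjusted p under 0.05. Over all tested transcripts 0.278% did in favour of Rps27-ribosomes and 1.08% in favour of Rps27l-ribosomes, so that 1 of 248 zinc finger proteins is near the share over all. Replication-dependent histones, short and intronless, had a median of 0.08 with *Hist2h2bb* (0.15) past the adjusted p alone, and their near-identical copies make these counts uncertain too. For p53 and its targets the median of 30 members was 0.06, 0 had an adjusted p under 0.05, and the median turned to -0.02 without replicate 1 of *Rps27-FLAG*.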

How the data were processed

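Counts of RPFs per transcript, without normalization, were deposited by the authors for 21727 transcripts and 15 libraries. 0 per-sample columns were left out. They trimmed reads with cutadapt 2.4, removed duplicates by molecular identifiers with UMI-tools 1.0.1, discarded rRNA, tRNA and snRNA reads and aligned the rest with Bowtie2 2.3.4.3 to GRCm38 transcripts. They counted unique alignments by A site over each CDS, leaving out its first and last codons. Unique alignment removes fragments of near-identical genes. CDS lengths and positions are those of GENCODE M21, which holds 21713 of the transcripts, and the authors' transcripts came from a different release.

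Transcripts encoded by mitochondrial DNA (13) were dropped, and 10085 with CPM over 2 in at least 14 of 15 libraries were tested. Factors from the trimmed mean of M-values (TMM) were computed for IP and total libraries separately. Counts were fitted in R 4.3.3 with edgeR 4.0.16 (quasi-likelihood F-test) on 12 libraries, with a term per clone and an IP effect per line, and the test was the difference of both IP effects. P-values were adjusted by Benjamini-Hochberg over 10085 transcripts. The limits were an adjusted p of 0.05 and an absolute log2 fold change of 0.25. Ratios of single clones are log2 of normalized CPM with 0.5 counts added. The CDS length trend was removed per library by loess (span 0.5) as an offset of the fit. The IP and total libraries of a clone are paired by the labels, and their deviations from group means correlated with r from 0.468 to 0.790.

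Named transcripts were the 10 highest and 10 lowest log2 fold changes past both limits with clones that do not overlap, the 5 lowest p-values in each direction among those past both limits also at matched length, *Rps27*, *Rps27l*, *Recql* and *Tmod3*, and, in each list, up to 4 members past both limits or else up to 2 with the lowest p. Some of the transcripts so picked are not reported here. The members and lists were chosen with earlier results of these data known. The fits were tested on simulated data. Alternatives were voom (limma 3.58.1), DESeq2 1.42.0, its size factors, TMM over the 12 libraries together, other filters, trends with GC content, libraries thinned to 3972152 counts, other blocks, other fold limits, the IP libraries alone and each clone left out. Counts per library limit the precision of the shorter and rarer transcripts. The p-values rest on the scatter of the IP/total difference among the clones of a line, since each clone has its own term for level. Figures were drawn with Python 3.11.15 and matplotlib 3.10.9.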

Additional observations from a re-analysis of the deposited data

Results flagged for a closer look

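The difference between the IP effects of the lines was tested directly, and the results past both limits are gathered here. There were 47 transcripts higher among Rps27l-ribosomes and 10 higher among Rps27-ribosomes. In the first direction the log2 fold changes of the transcripts named for the largest differences were 1.00 for *Nrk*, 0.53 for *Recql*, 0.46 for *Ttc21b*, 0.45 for *Golgb1*, 0.43 for *Plekhh1*, 0.41 for *Akap8l*, 0.36 for *Cenpf*, 0.36 for *Pik3r4* and 0.34 for *Atad2*. In the second they were -0.44 for *Mrps26*, -0.37 for *Pqbp1*, -0.35 for *Mpp6*, -0.34 for *Tnrc6c*, -0.34 for *Adipor1*, -0.32 for *Cry1*, -0.28 for *Ppp2r5a* and -0.26 for *Ndufa13*. *Tmod3*, outside the counts, had 0.71 (standard error 0.059, adjusted p = 6.1e-18 by edgeR).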

How the results depend on the processing

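Of the 57 transcripts past both limits (47 higher among Rps27l-ribosomes and 10 higher among Rps27-ribosomes), the count fell to 28 with the CDS length trend removed (18 and 10) and to 28 with the trends in length and GC content removed together (26 and 2). DESeq2 gave 11 (11 and 0; 253 at an unadjusted p under 0.05), and for 46 of the 57 its filter on mean counts left no adjusted p. A fold limit of 0.5 gave 3 (3 and 0), and no fold limit gave 150, of which 136 were higher among Rps27l-ribosomes. Libraries thinned to one depth left 6 higher among Rps27-ribosomes. With no replicate block, which leaves out the pairing of IP and total libraries, 0 transcripts passed in either direction (edgeR, 141 at an unadjusted p under 0.05). The IP libraries alone compare the level of IP RPFs between the lines and not the ratio, and they also gave 0 (edgeR, 829 at an unadjusted p under 0.05). A replicate block with an IP effect specific to each preparation pool gave 83, 61 and 22 in the 2 directions. When each clone was left out in turn the total ranged from 44 to 60, those higher among Rps27l-ribosomes from 37 to 52 and those higher among Rps27-ribosomes from 4 to 10, with 4 without replicate 1 of *Rps27-FLAG*. Of the 57, 24 passed all 6 of these fits. Among the named transcripts compared, the signs that turned were those of *Rps27l*, at 0.00135 with the length trend removed, 0.0162 with length and GC trends removed and 0.00300 without replicate 2 of *Rps27-FLAG* (from -0.0780 to 0.00300 over the fits without 1 clone), and of *Ppp2r5a*, at 0.0898 in the IP libraries alone. Of the 56 list medians, 16 turned sign in at least 1 of the 11 alternatives run on lists, all with a median within 0.06 of 0: 6 did with the length trend removed and between 3 and 8 when a clone was left out. With voom the count was 53 (45 and 8). The causes of these changes were not tested.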
